A study of Mus musculus with 24 samples.

Results

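The 42 genes described here encode the steps from glucose uptake to acetyl-CoA, the return path to glucose and the making and breaking of glycogen. They were listed by name and matched to the rows of the deposited table through the GENCODE vM21 annotation, which found all 42 among 15323 genes. The study sequenced polyadenylated RNA from the liver (median lobe) and heart (left ventricle) of 10-week-old males. Its 4 genotypes carry the nuclear genome of C57BL/6 (BL/6J in the names used here) or of NZB, each with mitochondrial DNA (mtDNA) from C57 or from NZB, and a name such as NZB:C57 puts the nuclear genome before the colon and the mtDNA after it. In BL/6J:C57 and NZB:NZB mice both genomes are of the same strain, whereas BL/6J:NZB and NZB:C57 mice are conplastic, made by 10 generations of backcrossing that joined the nuclear genome of a strain to the mtDNA of the other. There are 3 libraries for each genotype in each tissue, 24 in all, and each was made from the pooled RNA of 4 animals. The p-values below therefore refer to the variation among pools. Sample titles hold "mix" on the BL/6J side and "rep" on the NZB side, so a difference in handling behind these words and the effect of the nuclear genome cannot be told apart.

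Glycolysis splits glucose into pyruvate in the cytosol, and pyruvate is either reduced to lactate or carried into mitochondria, where the pyruvate dehydrogenase complex turns it into acetyl-CoA unless pyruvate dehydrogenase kinases switch the complex off. Liver uses its own isoforms of several steps and can run the path in reverse to release glucose, whereas heart muscle takes up glucose through an insulin-responsive transporter and uses muscle isoforms. Liver glycogen serves blood glucose, and muscle glycogen serves the muscle itself.

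Values are read counts scaled by the authors, called normalised read counts below. Recovered reads ran from 7294525 to 34974268 in liver libraries and from 3714278 to 12949956 in heart libraries, and the 42 genes held 0.524% to 0.682% of the reads in livers. In NZB:C57 hearts they held 1.44% to 1.49% of the reads, below the 1.74% to 2.24% of the other hearts. In NZB:C57 hearts 33.4% to 34.1% of reads fell on the 20 genes read most, beside 11.5% to 14.5% in the other hearts. The 10 cardiomyocyte markers summed to 266751 to 275801 in NZB:C57 hearts and to between 29267 and 46101 in the others. With each library's total in place of the authors' scaling, the median log2 fold change of all genes in hearts moved by -0.65 for NZB:C57 against NZB:NZB and by -0.54 for NZB:C57 against BL/6J:C57, so changes in NZB:C57 hearts are relative to the authors' scaling. Hepatocyte markers summed to 119951 or more in every liver library, and cardiomyocyte markers were read in every heart, so both tissues carried their label's defining genes. In bulk tissue, fewer cells of a type and less RNA per cell cannot be told apart.

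Heart and liver held different members of the same steps. By the median over 12 libraries, 25 of the 42 genes were higher in heart, 21 of them with no overlap between the libraries of the tissues, and 17 were higher in liver, 12 of them with no overlap. In limma's fit over 24 libraries, 39 of 42 genes differed between heart and liver in BL/6J:C57 mice, where 77% of all genes tested did; 25 were higher in heart (37.3% of all genes) and 14 lower (39.8%). The same comparison called 39 members in BL/6J:NZB mice (75.9% of all genes), 25 higher (37.5%) and 14 lower (38.4%). It called 36 in NZB:NZB mice (75.1%), 23 higher (37.8%) and 13 lower (37.4%), and 39 in NZB:C57 mice (79.5%), 25 higher (39.6%) and 14 lower (39.9%). There were 23 genes higher in heart in all 4 genotypes and 12 lower in all 4, and none was called in opposite directions. Slc2a4 passed the filter (1 or more in at least 3 libraries) through hearts alone. Slc2a2, Gckr, Pklr, G6pc, Fbp1 and Gys2 passed it through livers alone. These genes had to differ between tissues, and they are included in the counts. The median log2 difference of heart minus liver over the 42 genes in BL/6J:C57 mice was 0.88, beside -0.03 over all genes. With library totals in place of the authors' scaling, the median of all genes moved by 0.77, and 40 of the 42 genes were called, 28 higher and 12 lower.

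**Figure D1:**
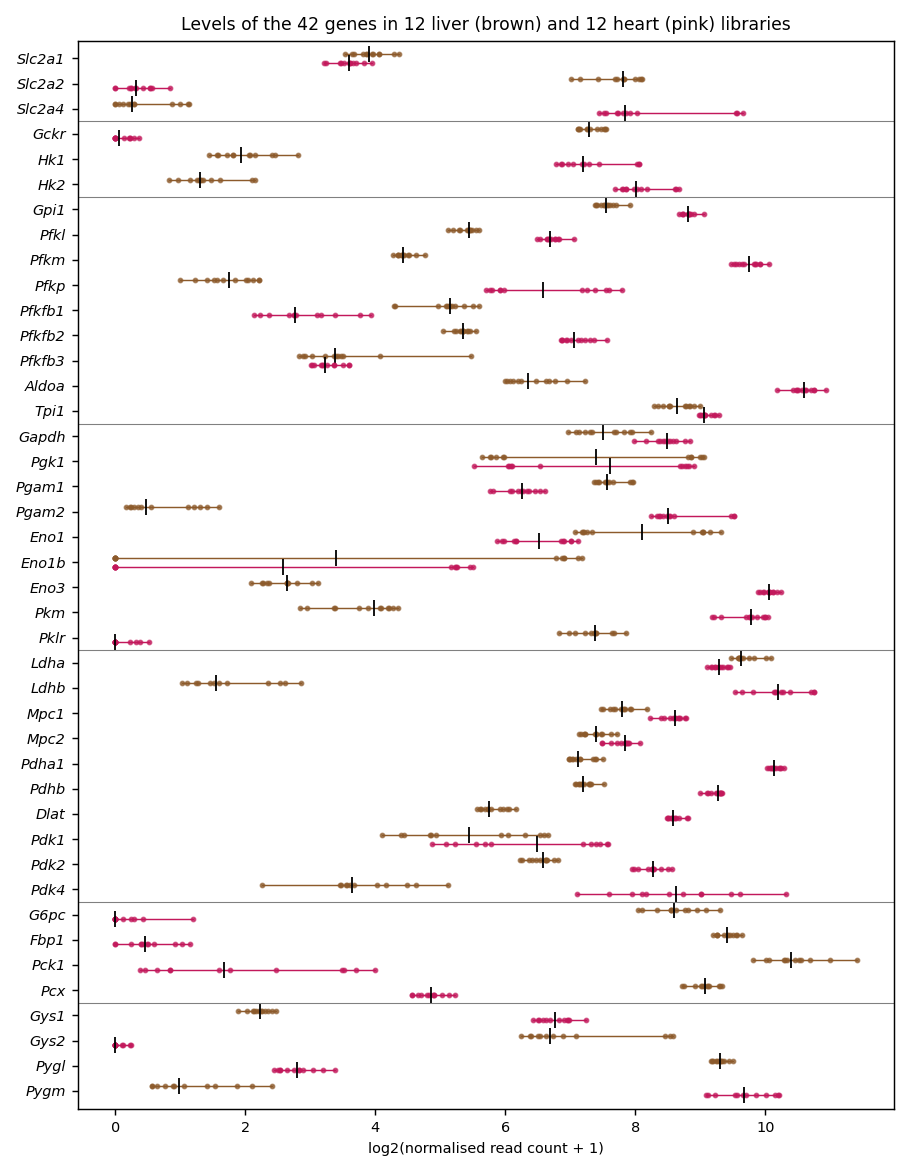
Each row is a gene and each point a library, on the scale log2(normalised read count + 1), with lines over the range and black ticks at the medians of 12 liver and 12 heart libraries; grey lines separate the roles. Pygm, Ldhb, Pgam2, Slc2a4, Eno3 and Hk2 lie far to the right in heart, and Pck1, Fbp1, G6pc, Pklr, Gckr and Slc2a2 in liver.

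Glucose transporters were divided by tissue. Slc2a4 (GLUT4, the insulin-responsive transporter) had 174 to 807 normalised reads in heart and 0 to 1.19 in liver. Slc2a2 (GLUT2, the transporter of hepatocytes) had 128 to 275 in liver and 0 to 0.788 in heart. Slc2a1 (GLUT1, found in many cell types) overlapped between tissues, at 10.6 to 19.5 in liver and 8.26 to 14.4 in heart. In BL/6J:C57 mice the log2 difference of heart minus liver was 7.78 for Slc2a4 (SE 0.20, adjusted p = 4.46e-20, limma) and -7.18 for Slc2a2 (SE 0.21, adjusted p = 2.93e-19, limma). Both genes were tested only through the tissue where they are high, so these p-values are no separate support.

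Phosphorylation of glucose showed the same division. Hk1 and Hk2, hexokinases of most tissues and of muscle, had 109 to 266 and 204 to 406 normalised reads in heart, against 1.71 to 6.03 and 0.776 to 3.45 in liver. Gckr, the protein that holds glucokinase in the hepatocyte nucleus, had 137 to 187 in liver and 0 to 0.287 in heart, with 6 of 12 heart libraries at 0. Of the phosphofructokinase genes, Pfkm (muscle form) ranged over 708 to 1059.6 in heart and 18.3 to 26.3 in liver. Pfkl (liver form) was also higher in heart, at 88.6 to 132 against 33.6 to 47.3, and Pfkp (platelet form) had 51.1 to 221 against 0.988 to 3.64. The genes that make fructose 2,6-bisphosphate, the activator of phosphofructokinase, differed among themselves. Pfkfb1, the liver and muscle form, was higher in liver (18.4 to 47.1 against 3.38 to 14.2), and Pfkfb2, the heart form, was higher in heart (115 to 188 against 32 to 45.8). Pfkfb3 overlapped, at 6.09 to 43.4 in liver and 7.05 to 11.1 in heart, where the liver maximum is the single library BL/6J:C57 replicate 2.

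Among the remaining enzymes down to pyruvate, Aldoa (aldolase A) had a median of 1539.7 normalised reads in heart and 81 in liver. Gpi1 (glucose-6-phosphate isomerase) had medians of 448 and 186, and Tpi1 (triosephosphate isomerase) and Gapdh (glyceraldehyde-3-phosphate dehydrogenase) overlapped between tissues, at 502 to 622 and 250.1 to 456 in heart and 313 to 509 and 123 to 301 in liver. Pairs of isoforms went opposite ways. Pgam2, the muscle phosphoglycerate mutase, had 303 to 735 in heart and 0.119 to 2.01 in liver, while Pgam1 had 53.5 to 96.9 in heart and 163 to 249 in liver. Eno3, the muscle enolase, had 949 to 1207 against 3.26 to 7.68, while Eno1, the widely expressed enolase, had 57.8 to 138 against 133 to 637. Pkm, the pyruvate kinase of muscle and most tissues, had 576 to 1053 against 6.19 to 19.3, and Pklr, the liver form, had 0 to 0.43 against 112 to 230.5, with 8 of 12 hearts at 0.

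At the end of the path, Ldhb, the lactate dehydrogenase subunit of heart, had 736 to 1713 normalised reads in heart and 1.03 to 6.21 in liver, while Ldha, the subunit of liver and fast muscle, was nearer to even at 547 to 704 and 705 to 1092. Per kilobase of annotated exon, Ldhb was the highest of the 42 genes in heart (median 748), followed by Eno3 (611) and Aldoa (529). The pyruvate carrier genes Mpc1 and Mpc2 had medians of 388 and 228 in heart and 221 and 166 in liver. The pyruvate dehydrogenase genes Pdha1, Pdhb and Dlat had heart medians of 1117, 617 and 382, each above its highest liver library. The kinases that inhibit the complex were all higher in heart by the median, with Pdk4 at 394 against 11.5, Pdk2 at 307 against 94.3 and Pdk1 at 99.9 against 44.9.

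The return path to glucose was a liver feature. Pck1 (phosphoenolpyruvate carboxykinase), Fbp1 (fructose-1,6-bisphosphatase) and G6pc (glucose-6-phosphatase) had liver ranges of 898 to 2729, 585 to 798 and 261 to 631 normalised reads. In hearts they ranged over 0.298 to 15, 0 to 1.22 and 0 to 1.29. The highest heart values of Fbp1 and G6pc came from the same library, BL/6J:NZB replicate 3, in which the 10 hepatocyte markers summed to 199, the highest of the hearts; the part of such transcripts in these values was not tested. Pcx (pyruvate carboxylase) had 418 to 642 in liver and 22.6 to 36.5 in heart. Per kilobase, Fbp1 was the highest of the 42 genes in liver (median 399.9), with Pck1 next (393). The largest log2 differences lower in heart in BL/6J:C57 mice were -10.02 for Pck1 (SE 0.41), -9.19 for Fbp1 (SE 0.20) and -8.63 for G6pc (SE 0.27).

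Glycogen genes came in matched pairs. The synthases Gys1 (muscle) and Gys2 (liver) had 84.8 to 150.5 and 0 to 0.185 normalised reads in heart and 2.72 to 4.57 and 74.3 to 381 in liver. The phosphorylases Pygm (muscle) and Pygl (liver) had 543 to 1178 and 4.45 to 9.4 in heart and 0.47 to 4.3 and 575 to 724 in liver. Pygm gave the largest log2 difference of heart minus liver among the 42 genes in BL/6J:C57 mice, 9.20 (SE 0.24, adjusted p = 3.62e-20, limma), and it ranged from 7.21 to 9.20 over the 4 genotypes.

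Muscle isoforms were read at low values in NZB livers, where cardiac transcripts were read too. The 10 cardiomyocyte markers summed to 0.279 to 0.352 in BL/6J:C57 livers, 0.653 to 1.15 in BL/6J:NZB livers, 46.3 to 159 in NZB:NZB livers and 0.314, 115 and 159 in the 3 NZB:C57 livers. Pgam2 in NZB:C57 livers was 0.314, 1.16 and 1.32 normalised reads, Pygm was 0.47, 3.3 and 1.65 and Slc2a4 was 0, 1.16 and 0.823, and the first of each is the library with the lowest cardiac sum. In NZB:NZB livers the same genes had 2.01, 1.47 and 1.66, 4.3, 2.65 and 1.88 and 1.19, 0.983 and 0.221, whereas no BL/6J liver exceeded 0.466 for Pgam2. For Pygm the BL/6J livers did not stand apart in this way, since the 0.47 of NZB:C57 replicate 1 was the lowest of all livers. The part of cardiac transcripts in these liver values was not tested.

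Several genes share long runs of sequence with copies elsewhere in the genome, and some of those copies were read only on the NZB nuclear genome. Words of 31 bases were counted in the annotated transcripts, and 54.7% of those of Pgk1 (phosphoglycerate kinase) also occur in other genes. The chief copy of Pgk1 (chromosome X, 106187100 to 106203699, GRCm38, plus strand) is the processed pseudogene Pgk1-rs7 (chromosome 12, 10898986 to 10900240), in which 1253 of the 1254 coding bases of Pgk1 align without a difference. The Eno1 gene (chromosome 4, 150236721 to 150248879) has the pseudogene Gm4735 (chromosome 2, 80837141 to 80838442), with 5 differing bases among 1302, and the gene Eno1b, with 8 among 1305. Gpi1 (chromosome 7, 34201330 to 34230336) has Gm1840 (chromosome 8, 5639580 to 5641011), with 20 differing bases among 1432, and Ldhb has Gm5514 (chromosome 19, 21937380 to 21938381), with 20 among 1002. The windows below, 90 bases of the coding strand read 5′ to 3′ from the GENCODE vM21 transcripts, are shown because they carry the bases, in capitals, that tell a gene from its copy. Pgk1 and Pgk1-rs7 do not differ in the aligned bases, and coding bases 31 to 120 are shown for both.
Pgk1 and Pgk1-rs7: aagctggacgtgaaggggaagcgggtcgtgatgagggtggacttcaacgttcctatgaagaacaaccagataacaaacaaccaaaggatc
Eno1, coding bases 1171 to 1260: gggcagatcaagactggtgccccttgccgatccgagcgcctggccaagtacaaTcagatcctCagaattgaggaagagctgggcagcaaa
Gm4735: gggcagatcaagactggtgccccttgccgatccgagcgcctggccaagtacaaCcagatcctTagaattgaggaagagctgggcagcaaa
Gpi1, coding bases 271 to 360: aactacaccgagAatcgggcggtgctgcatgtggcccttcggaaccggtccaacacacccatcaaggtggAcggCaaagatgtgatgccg
Gm1840: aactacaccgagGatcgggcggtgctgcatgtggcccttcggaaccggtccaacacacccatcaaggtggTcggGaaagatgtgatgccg
Ldhb, coding bases 271 to 360: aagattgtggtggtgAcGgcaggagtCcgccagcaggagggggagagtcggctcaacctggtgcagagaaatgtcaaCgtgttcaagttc
Gm5514: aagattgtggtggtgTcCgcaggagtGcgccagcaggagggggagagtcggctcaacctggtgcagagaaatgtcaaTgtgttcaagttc

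Pgk1-rs7 had 0 reads in all 12 BL/6J libraries and was read in all 12 NZB libraries. Its normalised reads were 369, 367 and 353 in NZB:NZB livers, 391, 338 and 366 in NZB:C57 livers, 428, 305 and 327 in NZB:NZB hearts and 353, 331 and 370.2 in NZB:C57 hearts. Pgk1 itself went the other way, at 448, 462 and 510.3 in BL/6J:C57 livers, 521, 529 and 463 in BL/6J:NZB livers, 61.6, 62.3 and 48.7 in NZB:NZB livers and 54, 56.7 and 53.3 in NZB:C57 livers. All 6 BL/6J livers lay above all 6 NZB livers, and hearts gave the same separation, with 458 and 422 on the BL/6J nucleus against 67.9 and 66.2 on the NZB nucleus. Pgk1 alone was lower in NZB:C57 than in BL/6J:C57 livers (log2 fold change -3.09, SE 0.10, adjusted p = 4.03e-11, limma). The copy took 85.5% to 87.9% of the summed value in the 6 NZB livers. The sum of Pgk1 and Pgk1-rs7, a sum chosen after the data were seen, was 473 ± 32.9 in BL/6J:C57 and 419.6 ± 25.1 in NZB:C57 livers and did not pass the test between them (log2 fold change -0.17, SE 0.09, adjusted p = 0.163, limma). The sum also did not pass between NZB:C57 and BL/6J:C57 hearts (adjusted p = 0.187, limma) or between NZB:NZB and BL/6J:NZB hearts (adjusted p = 0.956, limma). In NZB:NZB against BL/6J:NZB livers the sum was lower (log2 fold change -0.26, SE 0.09, adjusted p = 0.0459, limma). The level of Pgk1 on the NZB nucleus is therefore uncertain.

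Eno1b, whose product has nearly the enolase sequence of Eno1, also had 0 reads in all 12 BL/6J libraries. On the NZB nucleus its normalised reads were 109, 119 and 119 in NZB:NZB livers, 145, 117 and 138 in NZB:C57 livers, 44.4, 36.9 and 34.8 in NZB:NZB hearts and 36.3, 42.8 and 37.1 in NZB:C57 hearts. Against 3 reads per library as the floor, Eno1b was at least 724-fold higher in NZB:C57 than in BL/6J:C57 livers and at least 89.1-fold higher in the hearts of these genotypes. Eno1 itself had 637, 527 and 523 in BL/6J:C57 livers and 144, 160.1 and 151 in NZB:C57 livers (log2 fold change -1.88, SE 0.10, adjusted p = 7.60e-09, limma), with no overlap. The sum of Eno1 and Eno1b was still lower in NZB:C57 livers (log2 fold change -0.97, SE 0.10, adjusted p = 4.60e-06, limma) and in NZB:NZB against BL/6J:NZB livers (log2 fold change -1.01, SE 0.10). In hearts the sum was lower in NZB:C57 than in BL/6J:C57 mice (log2 fold change -0.30, SE 0.09, adjusted p = 0.0103, limma), and NZB:NZB against BL/6J:NZB did not pass (log2 fold change -0.21, SE 0.09, adjusted p = 0.0859, limma). With Gm4735 added as well, the liver difference was -0.52 (SE 0.10) for NZB:C57 and -0.60 (SE 0.10) for NZB:NZB, and the heart values turned to 0.20 and 0.18, neither past the test. The direction for enolase 1 in hearts thus depended on which copies were counted.

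**Figure D2:**
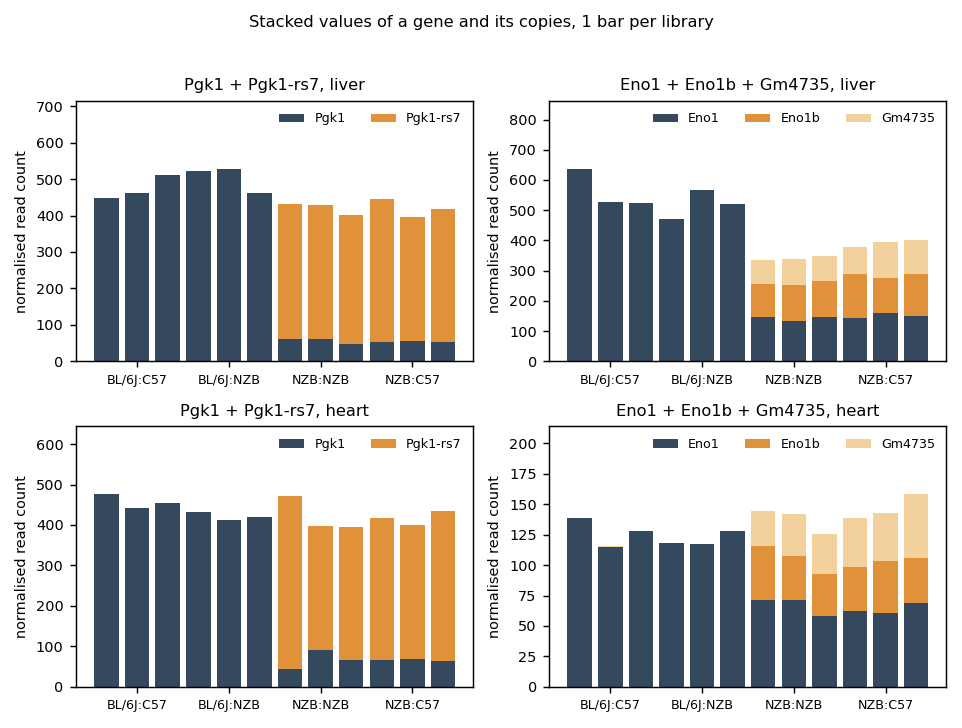
Each bar is a library and stacks the normalised read counts of a gene (dark) and its copies (orange shades), by tissue and genotype. The orange parts appear on the NZB nuclear genome, and the Pgk1 stacks of the genotypes come close in height, while the liver Eno1 stacks stay lower on the NZB nucleus.

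This pattern was not limited to these genes. In the whole table, 26 genes had 0 reads in all 12 BL/6J nuclear libraries and reads in all 12 NZB nuclear libraries, 16 of them annotated as pseudogenes and Eno1b the only member. The reverse held for 7 genes, 1 of them a pseudogene and none a member. How the authors' counting divides reads among copies in each nuclear genome was not tested. Gm4735 had 0 to 0.881 normalised reads in BL/6J libraries and 29 to 117 in NZB libraries, and Gm1840 had at most 0.0911 in BL/6J libraries and 20 to 73.5 in NZB libraries. For Ldhb the copy Gm5514 was small beside the gene, and adding it changed no call of Ldhb. Other members with at least 20% of their words in other genes, whose own levels are uncertain where counting splits reads, were Gapdh, Pgam1, Pkm, Pklr and Mpc1. Of the words of Pgam1, 37.1% occur in the copy Pgam1-ps2. That copy had 18 to 52.5 normalised reads in BL/6J livers and 22.6 to 497 in NZB livers. A sum of Pgam1 and Pgam1-ps2 was not tested.

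On the BL/6J nuclear genome, exchanging C57 for NZB mtDNA called none of the 41 members tested in liver by limma, where 0.0076% of all genes were called. At an unadjusted p under 0.05 there were 4, edgeR called 0, and limma without BL/6J:C57 replicate 3 called 1. In heart 1 of 36 members tested was called, where 0.935% of all genes were, and it was lower in BL/6J:NZB (0.507% of all genes; 0.427% were higher). Gys1, the muscle glycogen synthase, had 150.5, 113 and 125 normalised reads in BL/6J:C57 hearts and 97.3, 84.8 and 90.7 in BL/6J:NZB hearts, which do not overlap (log2 fold change -0.50, SE 0.09, adjusted p = 0.0276, limma). This call was lost on leaving out BL/6J:C57 replicate 1 or 3 or BL/6J:NZB replicate 2 or 3, and with the replicate number as a block, and without BL/6J:C57 replicate 2 there were 2 calls. Pdk4, the kinase that rises with fasting in muscle, had 711, 784 and 1275 normalised reads in BL/6J:C57 hearts and 364, 514 and 514 in hearts of BL/6J:NZB mice, and this difference did not pass (adjusted p = 0.0503, limma).

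On the NZB nuclear genome, C57 in place of NZB mtDNA called 5 of 41 members in liver, where 8.09% of all genes were called, 2 of them higher in NZB:C57 (3.65% of all genes) and 3 lower (4.44%). The median log2 fold change of the members was -0.10, beside 0.00 over all genes. Gys2, the liver glycogen synthase (chromosome 6, 142422613 to 142473109, minus strand), rose the most. It had 74.3, 83.1 and 82.3 normalised reads in NZB:NZB livers and 371, 381 and 351 in NZB:C57 livers, a ratio of means of 4.61 (log2 fold change 2.19, SE 0.13, adjusted p = 8.49e-08, limma). All 3 NZB:C57 livers lay above all 9 other livers, since BL/6J:C57 livers had 105, 98.2 and 117 and BL/6J:NZB livers 92, 90.1 and 135. The test of the difference between nuclear genomes gave Gys2 the only call among the members in liver (2.49% of all genes, 0.669% higher and 1.82% lower), with NZB minus C57 mtDNA lower by 2.15 on the log2 scale on the NZB nucleus than on the BL/6J nucleus (SE 0.19, adjusted p = 8.70e-06, limma). None of the 31-base words of Gys2 occurs in another gene, and its calls held with each library left out; the difference between nuclear genomes called 2 members in place of 1 without BL/6J:C57 replicate 3 or NZB:C57 replicate 3.

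The other liver calls on the NZB nucleus were smaller. Gckr had 137, 141 and 139 normalised reads in NZB:NZB and 176, 183 and 185 in NZB:C57 livers (log2 fold change 0.37, SE 0.10, adjusted p = 0.0365, limma). Its call was lost without any of the 6 libraries and, with library totals, where the median of all genes moved by -0.22, it did not pass. The replicate block lost it too. Of 10 hepatocyte markers 3 were called higher and none lower, with a median log2 fold change of 0.37 and sums of 179714 to 184233 in NZB:NZB and 209387 to 225531 in NZB:C57 livers, and their part in the Gckr change was not tested. Pdk1 fell from 27.5, 28 and 29.5 to 20.1, 20.8 and 16.1 (log2 fold change -0.56, SE 0.11, adjusted p = 0.00678, limma), with no overlap. Pkm fell from 19.3, 13.8 and 12.5 to 6.19, 9.32 and 6.75 (log2 fold change -0.94, SE 0.21, adjusted p = 0.0139, limma), a call lost without replicate 1 of NZB:NZB or of NZB:C57. Ldhb fell from 6.21, 4.82 and 5.09 to 2.27, 4.08 and 1.15 (log2 fold change -0.95, SE 0.26, adjusted p = 0.0418, limma), a call lost with edgeR, with a pseudocount of 0.5 and without any of 5 libraries (all but NZB:C57 replicate 2). The Ldhb call was also lost with no filter, with only the libraries compared and with the replicate block. Markers of cells other than hepatocytes moved with these. Of 8 stellate cell and fibroblast markers 6 fell, with sums of 337 to 365 in NZB:NZB and 122 to 196 in NZB:C57 livers. Of 7 endothelial markers 5 fell, with sums of 223 to 259.7 and 107 to 124. Their part in the fall of Pkm, Ldhb and Pdk1 was not tested. With library totals 16 members were called in this comparison, 1 higher and 15 lower, and the count of 5 fell to 2 without replicate 1 of NZB:NZB or of NZB:C57 and to 3 without NZB:NZB replicate 2.

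**Figure D3:**
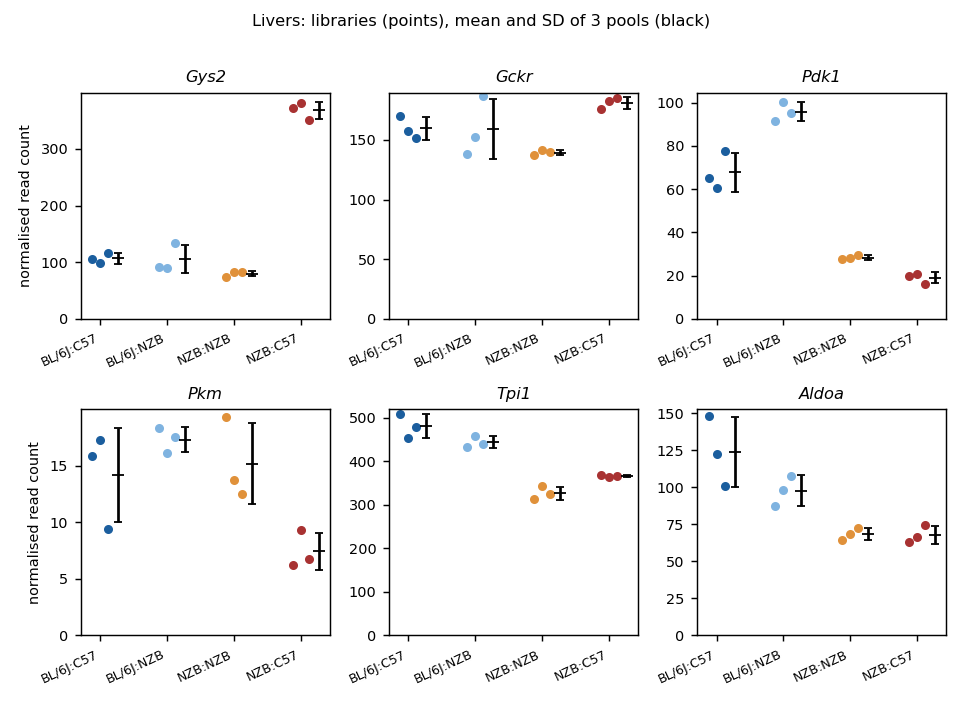
Points are the normalised read counts of liver libraries by genotype, with the mean and SD of 3 pools in black. NZB:C57 livers stand above all others for Gys2, and the 6 livers with the NZB nucleus lie below the 6 with the BL/6J nucleus for Pdk1, Tpi1 and Aldoa.

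In hearts on the NZB nuclear genome, C57 in place of NZB mtDNA called 13 of 36 members, where 15.9% of all genes were called, and all 13 were higher in NZB:C57 (13% of all genes, with 2.89% lower). The median log2 fold change of the members was 0.15, beside 0.00 over all genes. They were Slc2a4, Hk1, Hk2, Pfkp, Pgam2, Pkm, Ldhb, Mpc2, Pdk1, Pdk2, Pdk4, Gys1 and Pygm. With library totals, 4 of the 13 stayed higher and past the test (Slc2a4, Pgam2, Ldhb and Pygm), and 4 no longer passed (Hk1, Hk2, Pkm and Pdk4). The other 5 turned to lower (Pfkp, Mpc2, Pdk1, Pdk2 and Gys1), of which Pdk1 (-0.081) did not pass. With these totals 29 members were called, 4 higher and 25 lower.

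Slc2a4 (chromosome 11, 69942539 to 69948188, minus strand) changed the most. NZB:NZB hearts had 174, 186 and 182 normalised reads and NZB:C57 hearts 807, 750.1 and 753, a ratio of means of 4.26 (log2 fold change 2.09, SE 0.07, adjusted p = 1.12e-13, limma). BL/6J:C57 hearts had 259, 232 and 242 and BL/6J:NZB hearts 209, 212 and 224. The lowest NZB:C57 heart was thus above the highest of the other 9 hearts, and no 31-base word of Slc2a4 occurs in another gene. With library totals the log2 fold change was 1.38.

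The hexokinases moved together. Hk2 had 204, 221 and 231 normalised reads in NZB:NZB hearts and 406, 394 and 392 in NZB:C57 hearts (log2 fold change 0.86, SE 0.07, adjusted p = 4.71e-08, limma), and all NZB:C57 hearts lay above the other 9. Hk1 had 144, 173 and 147 and 264, 266 and 259.8 (log2 fold change 0.77, SE 0.08, adjusted p = 2.13e-06, limma), with the same separation. Among isoforms of the lower path, those of muscle rose. Pgam2 went from 385, 365 and 329.6 to 711, 735 and 732 (log2 fold change 1.01, SE 0.07, adjusted p = 9.37e-09, limma). Pkm went from 634, 594 and 576 to 1023, 1053 and 998 (log2 fold change 0.77, SE 0.07, adjusted p = 1.78e-07, limma), although BL/6J:C57 hearts, at 1023, 887 and 937, overlapped NZB:C57. Eno3, the muscle enolase, did not follow, at 1153, 1001 and 949 in NZB:NZB and 1069.8, 1060.5 and 1011 in NZB:C57 hearts (adjusted p = 0.923, limma). Pfkm, the muscle phosphofructokinase, had 750.1 ± 20.2 and 775 ± 58.5 and did not pass (adjusted p = 0.799, limma), and Aldoa had 1319 ± 139 and 1467 ± 39.6 (adjusted p = 0.284, limma).

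Ldhb went from 895, 794 and 736 normalised reads in NZB:NZB hearts to 1669.7, 1711 and 1713 in NZB:C57 hearts (log2 fold change 1.07, SE 0.08, adjusted p = 1.96e-08, limma), above all other hearts, while Ldha had 676 ± 33.1 and 631 ± 18.2 (adjusted p = 0.439, limma). Ldhb (chromosome 6, 142490249 to 142507957) and Gys2, which stood out in livers, lie near each other on the minus strand of chromosome 6. Pygm, which releases glucose from muscle glycogen, went from 557, 599.8 and 543 to 1178, 1176 and 1129 (log2 fold change 1.03, SE 0.08, adjusted p = 2.11e-08, limma), also above all other hearts. Of the kinases that inhibit pyruvate dehydrogenase, Pdk4 had 246, 137 and 192 and 274, 284 and 423 (log2 fold change 0.78, SE 0.22, adjusted p = 0.0217, limma), and Pdk1 had 33, 28.2 and 36.5 and 50.3, 45.9 and 53.6 (log2 fold change 0.61, SE 0.09, adjusted p = 8.64e-05, limma). Both stayed below every BL/6J:C57 heart. The Pdk4 call was lost without NZB:NZB replicate 2 or 3 or NZB:C57 replicate 3. The call of Mpc2 was lost without any 1 of 5 libraries (all but NZB:NZB replicate 1), that of Pdk2 without NZB:NZB replicate 2 or 3 or NZB:C57 replicate 1 or 2, and that of Gys1 without NZB:NZB replicate 1. Mpc2 was also lost with edgeR, with no filter, with only the libraries compared and with the replicate block.

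**Figure D4:**
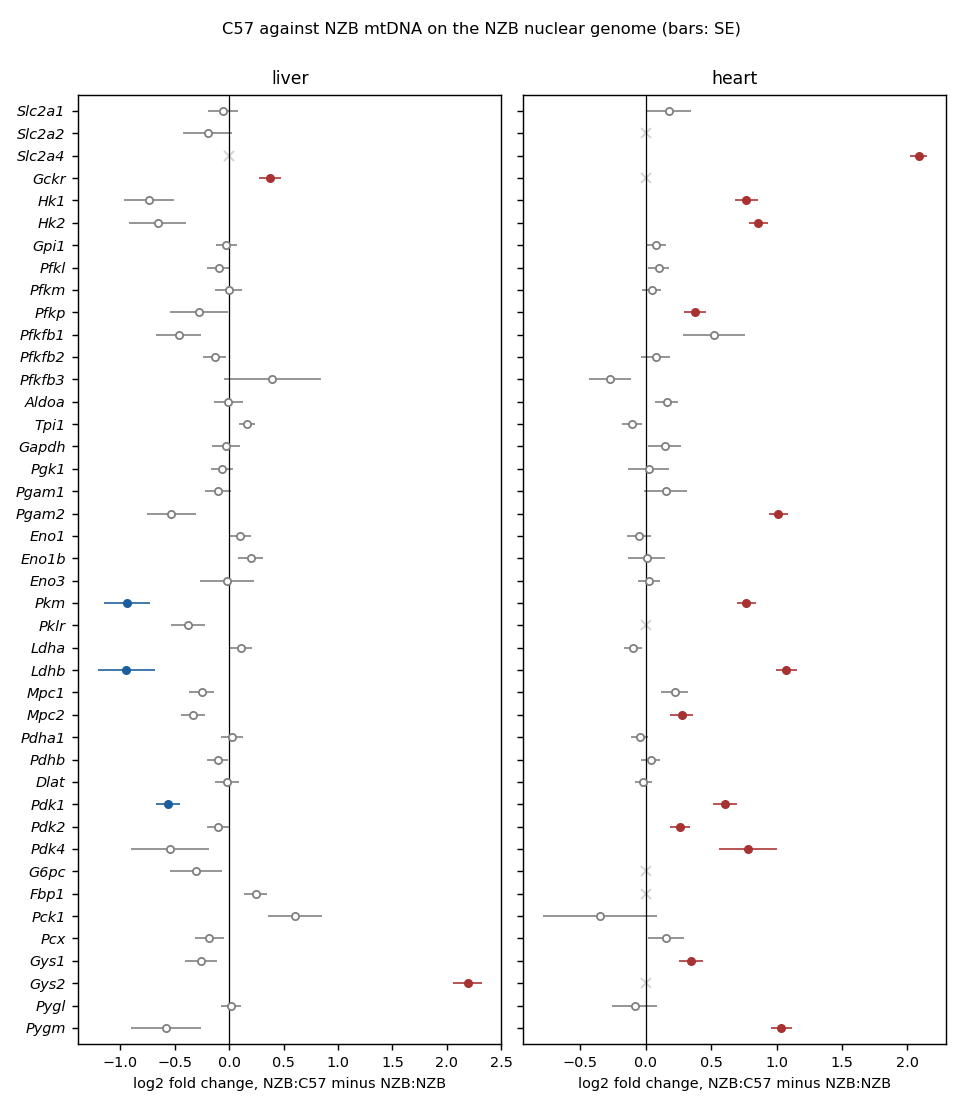
Each row is a gene, with the log2 fold change of NZB:C57 minus NZB:NZB and its SE in liver and heart; filled points passed the test (red higher, blue lower), open points did not, and crosses were not tested. In heart 13 filled points lie to the right of 0 and none to the left, of which Pfkp, Mpc2, Pdk1, Pdk2 and Gys1 turn to the left with library totals; in liver Gys2 stands apart.

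All 10 cardiomyocyte markers, all 4 atrial markers and all 5 skeletal muscle markers tested were also called higher in NZB:C57 than in NZB:NZB hearts. On the same scaling, 6 of 7 endothelial and 5 of 8 stellate cell and fibroblast markers were called higher. Markers were fitted only on the authors' scaling, and library totals moved the median of all genes in this comparison by -0.65. Whether the endothelial and fibroblast calls hold with library totals was not tested. Atrial marker sums ran over 4979 to 8975 in NZB:C57 and 596 to 901 in NZB:NZB hearts, and skeletal muscle marker sums over 11906 to 13377 and 2526 to 2855. Their part in the changes of Slc2a4, Pgam2, Ldhb and Pygm was not tested. The test of the difference between nuclear genomes in hearts called 8 members (11.2% of all genes, 1.42% higher and 9.81% lower), namely Slc2a4, Hk1, Hk2, Pgam2, Pkm, Ldhb, Mpc2 and Pygm, all with NZB minus C57 mtDNA lower on the NZB nucleus. With library totals, under which the median of all genes moved by 0.62, 25 members were called, 22 higher and 3 lower; Hk1, Hk2, Pkm and Mpc2 turned, Pygm no longer passed, and Slc2a4, Pgam2 and Ldhb held.

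**Figure D5:**
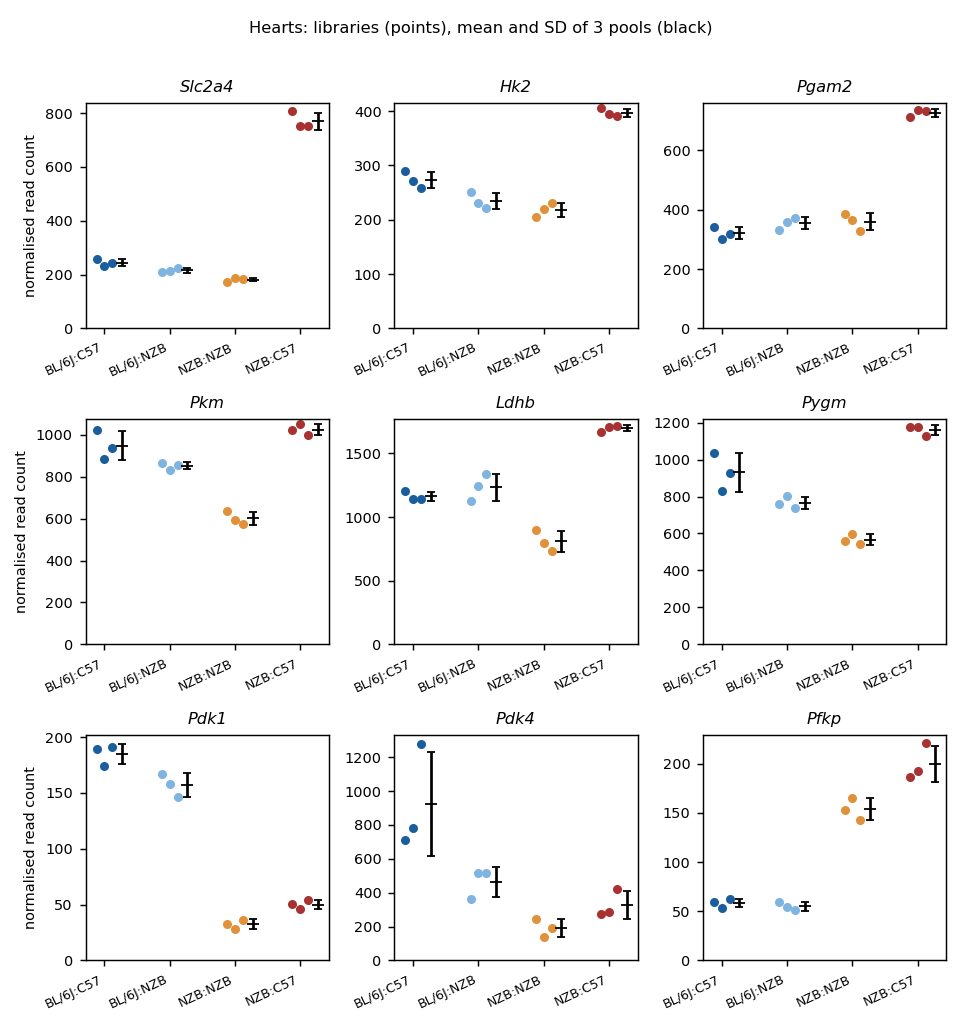
Points are the normalised read counts of heart libraries by genotype, with the mean and SD of 3 pools in black. NZB:C57 hearts stand above all others for Slc2a4, Hk2, Pgam2, Ldhb and Pygm (with library totals Hk2, Ldhb and Pygm turn lower than in BL/6J:C57 hearts, and of these only Pygm passes). The 6 hearts with the NZB nucleus lie below the 6 with the BL/6J nucleus for Pdk1 and above them for Pfkp.

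The effect of mtDNA on the NZB nucleus differed between tissues for 14 members, where 23.9% of all genes differed, 16.2% with the higher change in heart and 7.66% with the lower. Slc2a4, Hk1, Hk2, Pfkfb1, Pgam2, Pkm, Ldhb, Mpc1, Mpc2, Pdk1, Pdk4, Gys1 and Pygm had the higher change in heart and Gys2 the higher change in liver. With library totals, which moved the median of all genes by -0.41, 20 members were called, 9 with the higher change in heart and 11 with the lower, and 9 of the 14 were among the 20. The muscle genes among these were close to 0 reads in some livers, so their liver changes rest on few reads. Gys2 had 0 to 0.185 normalised reads in heart, so its difference between tissues restates its liver change. On the BL/6J nucleus 0 members differed between tissues by limma (0.0735% of all genes, 0.02% higher and 0.0534% lower), with 8 at an unadjusted p under 0.05 and 1 called by edgeR; without the liver library BL/6J:C57 replicate 3 there were 3, and without BL/6J:NZB replicate 3 there was 1.

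Nuclear genomes were compared at each mtDNA, as NZB:C57 against BL/6J:C57 and as NZB:NZB against BL/6J:NZB, which share no library. In liver the comparison at C57 mtDNA called 14 of 41 members (27.9% of all genes), 3 of them higher on the NZB nucleus (13.1% of all genes) and 11 lower (14.8%), and without NZB:C57 replicate 2 it called 9. At NZB mtDNA it called 13 (24.9% of all genes), 4 higher (12.9%) and 9 lower (11.9%). In heart 18 of 36 were called at C57 mtDNA (35.2% of all genes), 9 higher (22.1%) and 9 lower (13.1%), and 33 with library totals, 6 higher and 27 lower. At NZB mtDNA 21 were called in heart (29.1% of all genes), 6 higher (15.5%) and 15 lower (13.6%). The medians of the members were -0.26 and -0.14 in liver and -0.08 and -0.13 in heart on the log2 scale, beside -0.03, -0.01, 0.01 and 0.02 over all genes. Eno1b, Pgk1 and Eno1, described above, are among the calls in all 4 comparisons. Eno1b was not read on the BL/6J nucleus, so it passed the filter through NZB libraries alone and had to be called higher. Pgam2 and Pygm in liver and Pck1 in heart likewise passed through the NZB nucleus. Pgk1 counts as lower in each, though summed with Pgk1-rs7 it passed only in NZB:NZB against BL/6J:NZB livers.

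Pdk1, the pyruvate dehydrogenase kinase induced in low oxygen, was lower on the NZB nucleus in both tissues. Its liver values were 65, 60.4 and 77.7 normalised reads in BL/6J:C57 mice and 91.4, 100.2 and 95.4 in mice with the same nucleus and NZB mtDNA, above every NZB liver (29.5 at most). NZB:C57 minus BL/6J:C57 gave -1.78 (SE 0.11, adjusted p = 5.78e-08, limma) and NZB:NZB minus BL/6J:NZB gave -1.72 (SE 0.11) on the log2 scale. Its heart values were 189, 174 and 191 in BL/6J:C57 mice and 167, 158 and 146 with NZB mtDNA on the same nucleus, against 28.2 to 53.6 in the 6 NZB hearts, with log2 fold changes of -1.87 and -2.24. Only 0.641% of the 31-base words of Pdk1 occur in other genes, and the 4 calls between nuclear genomes held under each alternative run.

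Tpi1, Aldoa and Gapdh, enzymes of the common trunk, were lower in NZB livers at either mtDNA; Gapdh is among the genes whose level is uncertain. Tpi1 had 509, 454 and 479 normalised reads in BL/6J:C57 and 368, 364 and 366 in NZB:C57 livers (log2 fold change -0.39, SE 0.08, adjusted p = 0.00198, limma), and with NZB mtDNA it was lower too (-0.44, SE 0.08). Aldoa had 148, 122 and 101 and 62.9, 66.2 and 74.7 (log2 fold change -0.84, SE 0.13, adjusted p = 0.000297, limma), with -0.51 (SE 0.13) for NZB mtDNA. Gapdh had 301, 241 and 225 and 123, 156 and 149 (log2 fold change -0.83, SE 0.13, adjusted p = 0.000287, limma), with -0.58 (SE 0.13) for NZB mtDNA. None of these overlapped between nuclear genomes at either mtDNA. Gpi1, Pgam1, Pkm, Pfkfb1 and Mpc1 were called lower with C57 mtDNA alone, and Slc2a1, Pdha1 and Dlat with NZB mtDNA alone. Whether mtDNA changed these differences did not pass the test for any of them. Pgam1, Pkm and Mpc1 are also among the genes whose level is uncertain, and Pgam1 was not summed with its copy Pgam1-ps2. With Gm1840 added, Gpi1 no longer passed (adjusted p = 0.344, limma), and Pgk1 summed with Pgk1-rs7 did not pass at C57 mtDNA (adjusted p = 0.163, limma). With library totals the calls of Slc2a1, Pdha1 and Dlat at NZB mtDNA and of Pgam2 at C57 mtDNA were lost. With the replicate block Dlat did not pass at NZB mtDNA (adjusted p = 0.052, limma), nor did Gpi1 and Pgam2 at C57 mtDNA. At C57 mtDNA Gpi1 was also lost with edgeR, and Gpi1, Pfkfb1 and Mpc1 with only the libraries compared. Single libraries decided several of these calls at C57 mtDNA. Gpi1 and Pgam1 did not pass without BL/6J:C57 replicate 1 or 2 or NZB:C57 replicate 1 or 2, nor Gpi1 without NZB:C57 replicate 3; Pfkfb1 not without BL/6J:C57 replicate 1 or NZB:C57 replicate 1 or 2; Mpc1 not without BL/6J:C57 replicate 1 or NZB:C57 replicate 2; Pkm not without BL/6J:C57 replicate 2; and Pgam2 not without any library but NZB:C57 replicate 1. At NZB mtDNA Slc2a1 did not pass without BL/6J:NZB replicate 1 or 2 or NZB:NZB replicate 1, Aldoa not without BL/6J:NZB replicate 3, Pdha1 not without any library but BL/6J:NZB replicate 1, Dlat not without any of the 6, and Pygm not without any but NZB:NZB replicate 3. Higher in NZB livers were Gys2 with C57 mtDNA (described above), Pgam2 at either mtDNA, and Ldhb and Pygm with NZB mtDNA. Pgam2, Ldhb and Pygm stayed at 6.21 normalised reads or less in livers. Pgam2 and Pygm were tested in liver only because NZB livers reached 1, so the filter favoured their calls as higher. All 10 cardiomyocyte markers, 6 of 8 stellate and fibroblast markers and 4 of 7 endothelial markers were also called higher in NZB:NZB than in BL/6J:NZB livers; their part was not tested.

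The rate-controlling genes of glucose production did not pass between nuclear genomes in liver at either mtDNA. G6pc had 435, 374 and 449 normalised reads in BL/6J:C57 and 320.1, 274 and 374 in NZB:C57 livers (adjusted p = 0.255, limma). Pck1 had 1401, 2046 and 1496 and 1263, 1646 and 2729 (adjusted p = 0.725, limma), and Fbp1 had 679.5 ± 85.3 and 746 ± 57.9 (adjusted p = 0.363, limma). For G6pc the log2 difference of -0.38 had an SE of 0.24, and for Pck1 0.13 had an SE of 0.25 with 3 pools a group. Pklr, Slc2a2 and Pygl did not pass either (adjusted p = 0.0985, 0.245 and 0.931, limma).

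In hearts, Pfkp was higher on the NZB nucleus. It had 59.6, 53.6 and 61.9 normalised reads in BL/6J:C57 hearts, 59.6, 54.3 and 51.1 in BL/6J:NZB, 152, 165 and 143 in NZB:NZB and 186, 192 and 221 in NZB:C57 hearts, with every heart of the NZB nucleus above all 6 of the other. The log2 fold change was 1.76 with C57 mtDNA (SE 0.09, adjusted p = 2.99e-11, limma) and 1.47 with NZB mtDNA (SE 0.09). Pdk4 was lower on the NZB nucleus, from 923 ± 307 to 327 ± 83.3 with C57 mtDNA (log2 fold change -1.47, SE 0.22, adjusted p = 4.41e-05, limma) and from 464 ± 86.4 to 192 ± 54.8 with NZB mtDNA (log2 fold change -1.29, SE 0.22, adjusted p = 0.000316, limma). Pfkm, Aldoa and Pfkfb1 were lower at either mtDNA, Pfkm by -0.33 and -0.31 on the log2 scale, Aldoa by -0.27 and -0.30 and Pfkfb1 by -0.64 and -1.03. Hk1 was higher at either mtDNA, by 0.95 and 0.44. In the same hearts with C57 mtDNA, 7 of 7 endothelial, 7 of 8 stellate cell and fibroblast and 5 of 5 macrophage markers tested were called higher on the NZB nucleus. With NZB mtDNA 0 of 7, 6 of 8 and 4 of 5 were called higher, and none lower. These markers were fitted only on the authors' scaling, and library totals moved the median of all genes at C57 mtDNA by -0.54. Their part in these differences was not tested.

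Pck1 was low in hearts and higher on the NZB nucleus. It had 0.365, 0.795 and 0.554 normalised reads in BL/6J:C57 and 2.38, 12 and 10.2 in NZB:C57 hearts (log2 fold change 2.33, SE 0.44, adjusted p = 0.000396, limma), and 0.298, 0.794 and 2.01 in BL/6J:NZB and 4.53, 15 and 10.5 in NZB:NZB hearts (log2 fold change 2.39, SE 0.44, adjusted p = 0.000556, limma), and neither pair overlapped. Outside the NZB hearts too few libraries reached 1 for Pck1 to be tested. The filter thus favoured these calls, and the p-values are no separate support. Pck1 also serves glyceride synthesis in fat. Of 4 adipocyte markers tested, 3 were called higher on the NZB nucleus at either mtDNA and 1 lower at NZB mtDNA. The sums of all 5 markers were 309 to 369 in BL/6J:C57, 399 to 561 in BL/6J:NZB, 364 to 401 in NZB:NZB and 561 to 673 in NZB:C57 hearts. Of 9 hepatocyte markers tested in hearts, 7 were called higher on the NZB nucleus with C57 mtDNA (median log2 fold change 1.19) and 1 with NZB mtDNA (median 0.60). The sums of all 10 were 15.3 to 19.9 in BL/6J:C57, 24 to 199 in BL/6J:NZB, 91.7 to 98.2 in NZB:NZB and 51.4 to 108 in NZB:C57 hearts. The part of either list in the Pck1 difference was not tested, and neither list was fitted with library totals.

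Some members differed between nuclear genomes in opposite directions by mtDNA. Slc2a4 was higher in NZB:C57 than in BL/6J:C57 hearts (log2 fold change 1.65, SE 0.07, adjusted p = 1.47e-12, limma) and lower in NZB:NZB than in BL/6J:NZB hearts (log2 fold change -0.25, SE 0.07, adjusted p = 0.0082, limma). Ldhb gave 0.55 and -0.61 and Pygm 0.32 and -0.43 on the log2 scale. The test of the difference between these comparisons is the interaction given above, which called all 3. With library totals Hk2, Ldhb and Pygm turned to -0.05, -0.04 and -0.26 in NZB:C57 against BL/6J:C57 hearts. Pkm, Mpc2, Pdk2, Pfkfb2 and Gapdh were called lower, and Ldha and Pygl higher, in NZB:NZB against BL/6J:NZB hearts alone, and Pgam2 and Hk2 higher and Pfkl and Dlat lower in NZB:C57 against BL/6J:C57 hearts alone. Of these, the difference itself passed for Pkm, Mpc2, Pgam2 and Hk2 (of which Pkm, Mpc2 and Hk2 changed sign in that test with library totals) and not for the others. The Gapdh libraries of NZB:NZB and BL/6J:NZB hearts overlapped, and its call was lost with library totals. Of 10 cardiomyocyte markers 6 were called lower in NZB:NZB than in BL/6J:NZB hearts, and all 10 higher in NZB:C57 than in BL/6J:C57 hearts; their part in these differences was not tested. At C57 mtDNA Pfkl did not pass without any library but BL/6J:C57 replicate 3, Pfkfb1 not without BL/6J:C57 replicate 3 or any NZB:C57 replicate, and Aldoa not without BL/6J:C57 replicate 1 or NZB:C57 replicate 1 or 2. Pfkfb1 was also lost there with no filter. At NZB mtDNA Aldoa did not pass without replicate 3 of either genotype, Gapdh not without BL/6J:NZB replicate 2 or 3 or NZB:NZB replicate 1 or 3, Ldha not without BL/6J:NZB replicate 2, and Pygl not without replicate 1 or 2 of either genotype.

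Other genes of the same paths, 56 of 58 listed names in the table, were counted in the same fits. With C57 in place of NZB mtDNA on the NZB nucleus, 11 of 54 tested (20.4%) were higher in heart and none lower, beside 13% higher and 2.89% lower of all genes. They were led by Ppp1r3a, which targets phosphatase to muscle glycogen (log2 fold change 2.70, SE 0.11, adjusted p = 2.49e-12, limma), Pygb, the brain glycogen phosphorylase (log2 fold change 0.74, SE 0.07), Ppp1r3d (1.52) and Pdk3 (1.43). With library totals 4 were called higher and 37 lower; Ppp1r3a, Ppp1r3d (0.86) and Pdk3 (0.94) were called higher there too, and Pygb (0.040) did not pass. In liver 3 of 47 (6.38%, beside 8.09% of all genes) were called, Aldoc, the brain aldolase, higher (log2 fold change 2.89, SE 0.19, adjusted p = 1.38e-07, limma), Slc2a5, the fructose transporter, higher (1.97) and Pygb lower (-0.84), and with library totals 2 were higher and 17 lower. Between nuclear genomes in liver, 7 of 47 were higher and 12 lower on the NZB nucleus with C57 mtDNA (40.4%, beside 27.9% of all genes), and 6 higher and 8 lower with NZB mtDNA (29.8%, beside 24.9%). In heart 10 of 54 were higher and 16 lower with C57 mtDNA (48.1%, beside 35.2%), which became 6 higher and 40 lower with library totals. With NZB mtDNA 3 were higher and 16 lower in heart (35.2%, beside 29.1%), which became 8 higher and 12 lower. In livers with NZB mtDNA Ppp1r3b, which targets phosphatase to liver glycogen, was lower on the NZB nucleus (log2 fold change -1.63, SE 0.14, adjusted p = 1.34e-06, limma), as it was with C57 mtDNA (-1.12, SE 0.14).

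Of 25 regulators of these paths, 5 of 25 tested in liver and 2 of 21 in heart were called for mtDNA on the NZB nucleus, that is 20% beside 8.09% of all genes in liver and 9.52% beside 15.9% in heart. With library totals 2 were higher and 7 lower in liver, and 0 higher and 18 lower in heart. Among those called in liver, Gcgr, the glucagon receptor (log2 fold change 0.82, SE 0.13, adjusted p = 0.000849, limma), was higher, and Mef2c, a muscle transcription factor (-0.86, SE 0.18), and Txnip, which restrains glucose uptake (-0.75, SE 0.16), were lower. In heart Mef2c (log2 fold change 0.80, SE 0.09, adjusted p = 3.35e-06, limma) and Txnip (0.50, SE 0.16) were higher, but with library totals Mef2c (0.11) did not pass and Txnip turned to -0.21, which did not pass either. The test of the difference between tissues called Mef2c (log2 fold change 1.67, SE 0.19, adjusted p = 4.14e-07, limma) and Txnip (log2 fold change 1.25, SE 0.26, adjusted p = 0.000784, limma), and called both with library totals too.

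Promoter windows, 250 bases before to 50 after the annotated start, were taken from RefSeq (GRCm38.p6) and matched 39 of the 42 genes, all but Slc2a4, Eno1b and Gys2. Both strands were searched for CACGTG (E-box), TGACGTCA (the cyclic AMP response element) and GTAAACA (forkhead). The search also took in ACGTG, the core of the hypoxia response element, which every CACGTG also holds. A last pattern was CTA and TAG with any 4 bases between, which is looser than the MEF2 motif with A or T at these bases. ACGTG was found in 17 of 39 members (43.6%) and in 21.8% of all genes, and CACGTG in 6 (15.4%) and 8.09%. The loose CTA and TAG pattern was found in Ldhb and Mpc2 (5.13% of members, 4.23% of all genes). Its matches there hold G or C among the 4 middle bases, so none is counted as a MEF2 site. TGACGTCA was found in Ldha (2.03% of all genes), and GTAAACA (4.05%) in no member window. The windows below are the 250 bases before the start of 4 of the genes with a match that were called higher in NZB:C57 than in NZB:NZB hearts. Of these, Mpc2 and Pdk2 turn lower there with library totals. Pkm and Pygm, also called higher, hold ACGTG before the start too, and Hk1 holds it after the start, and their windows are not shown. Sequences run 5′ to 3′ on the gene's strand with the match in capitals (ACGTG in Hk2, the loose CTA and TAG pattern in Ldhb and Mpc2, CACGTG in Pdk2). A match is a description of the sequence only.
Hk2, chr6:82774455-82774704, minus strand: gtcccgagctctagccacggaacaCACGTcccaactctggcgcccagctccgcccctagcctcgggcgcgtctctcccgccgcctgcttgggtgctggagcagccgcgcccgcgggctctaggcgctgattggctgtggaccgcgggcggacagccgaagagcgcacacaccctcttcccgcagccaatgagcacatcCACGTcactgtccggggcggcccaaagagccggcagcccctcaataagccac
Ldhb, chr6:142507958-142508207, minus strand: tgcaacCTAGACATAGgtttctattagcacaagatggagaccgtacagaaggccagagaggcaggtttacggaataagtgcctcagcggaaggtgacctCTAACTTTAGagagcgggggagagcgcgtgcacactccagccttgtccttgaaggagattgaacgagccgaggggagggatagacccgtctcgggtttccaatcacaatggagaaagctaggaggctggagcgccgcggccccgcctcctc
Mpc2, chr1:165461010-165461259, plus strand: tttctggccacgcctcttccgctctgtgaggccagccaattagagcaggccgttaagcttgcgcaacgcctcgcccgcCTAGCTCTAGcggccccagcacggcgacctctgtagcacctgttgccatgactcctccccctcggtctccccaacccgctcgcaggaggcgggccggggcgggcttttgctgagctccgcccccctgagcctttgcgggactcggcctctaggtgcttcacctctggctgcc
Pdk2, chr11:95041372-95041621, minus strand: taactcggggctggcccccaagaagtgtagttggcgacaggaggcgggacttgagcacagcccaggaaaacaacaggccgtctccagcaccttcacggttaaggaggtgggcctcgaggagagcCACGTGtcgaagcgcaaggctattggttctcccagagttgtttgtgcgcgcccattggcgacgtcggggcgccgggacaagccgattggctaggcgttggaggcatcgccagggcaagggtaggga

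As a description of likeness over the 12 libraries of a tissue, which share genotype groups and scaling, the members most like Slc2a4 in heart on the scale log2(value + 1) were Hk2 (Pearson r = 0.97), Pgam2 (0.94) and Hk1 (0.88). Those most like Pdk4 in heart were Pdk1 (0.87), Pfkfb1 (0.87) and Pdk2 (0.83). Those most like G6pc in liver were Gys1 (0.77), Pklr (0.64) and Pgam1 (0.57).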

How the data were processed

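RNA from 24 pools was sequenced by the authors. Per the submitters' processing notes, cutadapt 1.2.1, RSEM 1.2.3, Bowtie2 2.0.6, edgeR (version not stated) and build GRCm38 were used, with no roles given. The deposited signal values are reads per gene, normalised by the authors by 1 constant per library, per the file headers (Norm_). How the constants were set is not stated in these sources. Dividing by each constant gave whole reads for 100% of values (tolerance 0.01 reads).

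Values were tested as log2(value + 1) with limma 3.58.1 in R 4.3.3, keeping genes at 1 or more in at least 3 libraries. The 12 libraries of a tissue entered 1 fit and all 24 entered another for tissue comparisons, with Benjamini-Hochberg adjustment over all genes tested (13159 in liver, 13803 in heart, 14968 in both) and a threshold of 0.05. Fold changes on this scale understate changes of low genes. The fits were tested on simulated data. Gene names came from GENCODE vM21, which matched 15106 of 15323 genes. Of the 42 members, 41 passed the filter in liver and 36 in heart, and a member that passed through 1 group had to differ there. The named genes were up to 8 per direction and comparison with the smallest p, plus Eno1, Eno1b and Pgk1; others are named from the lists. Members and lists were chosen with earlier results of these data known. Alternatives were another pseudocount (0.5), no filter, library totals, edgeR 4.0.16 on recovered reads, only the libraries compared, a replicate block and leaving out each library. Sums with pseudogene copies were added after seeing the data. Correlations of same-numbered libraries ran from -0.22 to 0.24 within tissues and -0.05 to 0.21 between them. Some items are not reported here. Figures were drawn with matplotlib 3.10.9.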

Additional observations from a re-analysis of the deposited data

Results flagged for a closer look

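These differences between groups in the effect of mtDNA passed limma's test of the difference itself. In liver, the log2 change from C57 to NZB mtDNA differed between the NZB and the BL/6J nucleus by -2.15 for Gys2. In heart the same test gave differences of -1.90 for Slc2a4, -0.50 for Hk1, -0.64 for Hk2, -1.15 for Pgam2, -0.62 for Pkm, -1.16 for Ldhb, -0.50 for Mpc2 and -0.76 for Pygm. With library totals the heart differences of Hk1, Hk2, Pkm and Mpc2 turned to higher, and none of these passed.

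Between tissues, the log2 change from NZB to C57 mtDNA on the NZB nucleus was higher in heart than in liver by 2.23 for Slc2a4, 1.502 for Hk1, 1.52 for Hk2, 0.98 for Pfkfb1, 1.54 for Pgam2, 1.71 for Pkm, 2.02 for Ldhb, 0.47 for Mpc1, 0.60 for Mpc2, 1.17 for Pdk1, 1.32 for Pdk4, 0.61 for Gys1 and 1.61 for Pygm. For Gys2 this difference was -2.30, which restates its liver change, since Gys2 was near 0 in hearts. Pgam2, Pygm, Slc2a4 and Ldhb had few reads in livers, which limits their liver side.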

How the results depend on the processing

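Library totals in place of the authors' scaling called 16 members for NZB:C57 minus NZB:NZB in liver and 29 in heart, 33 for NZB:C57 minus BL/6J:C57 in heart, 25 for the difference between nuclear genomes in heart and 1 for that between tissues on the BL/6J nucleus. They turned Pfkp (-0.33), Mpc2 (-0.43), Pdk1 (-0.081), Pdk2 (-0.44) and Gys1 (-0.35) in NZB:C57 minus NZB:NZB hearts and Hk2 (-0.049), Ldhb (-0.043) and Pygm (-0.26) in NZB:C57 minus BL/6J:C57 hearts. They also turned Hk1 (0.17), Hk2 (0.031), Pkm (0.058) and Mpc2 (0.17) in the difference between nuclear genomes in heart. The cause was not tested. Adding Eno1b and Gm4735 turned Eno1 in heart to 0.20 at C57 and 0.18 at NZB mtDNA.

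For BL/6J mtDNA in heart, edgeR called 2 members and a fit of only the libraries compared called 2. For the tissue difference on the BL/6J nucleus edgeR called 1. The replicate numbers carry no stated pairing, and all 3 same-numbered pairs correlated above 0.1 only for NZB:NZB and BL/6J:NZB livers (0.158 to 0.244). With the replicate block, that comparison called 14 members beside 13, of which 12 were shared (Dlat was lost), the BL/6J heart mtDNA comparison 0 beside 1, and no other count moved by over 1.5 times.

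Leaving out 1 library at a time called 0 to 1 members in liver and 0 to 2 in heart for BL/6J mtDNA, and 2 to 4 and 10 to 13 for NZB:C57 minus NZB:NZB. It called 9 to 15 in liver and 15 to 19 in heart for NZB:C57 minus BL/6J:C57, and 9 to 12 and 18 to 21 for NZB:NZB minus BL/6J:NZB. The difference between nuclear genomes called 1 to 2 in liver and 8 to 9 in heart, and that between tissues 0 to 3 on the BL/6J and 11 to 13 on the NZB nucleus. Heart minus liver called 36 to 39 over the 4 genotypes. No setting changed the direction of Gys2, Slc2a4, Pgam2 or Pdk1 between the groups where they are reported, other than Pdk1 as given above. Depth limits the muscle isoforms in liver and the gluconeogenic genes in heart, which had few reads.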
